A study of Mus musculus with 11 samples.

Results

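Toll-like receptors other than TLR4 were followed in airway RNA of mice with an LPS-driven exacerbation of allergic airway inflammation, with and without GGsTop, an inhibitor of the enzyme gamma-glutamyl transferase. The 9 members were chosen by name (Tlr1, Tlr2, Tlr3, Tlr5, Tlr6, Tlr7, Tlr8, Tlr9 and Tlr13) and their rows were found by gene identifier among the 21899 genes of the table. Male BALB/c wild-type mice aged 6 to 8 weeks were compared in 3 groups. The PBS group (3 libraries) was not sensitized and received PBS only. The OVA/LPS/Vehicle group (OL, 4 libraries) was sensitized to ovalbumin (OVA) with alum on days 0 and 7, received OVA by the nose from day 14 to day 17 and LPS by the nose on days 19 and 21, and was given vehicle. The OVA/LPS/GGsTop group (OLG, 4 libraries) had the same course, with GGsTop at 0.5 mg/kg into the trachea on days 21, 22 and 23 in place of vehicle, and tissue was taken on day 25. No group received OVA without LPS or LPS without OVA, so the effects of both agents cannot be told apart. The OL libraries carry the numbers 12, 34, 56 and 78, and whether each held RNA of more than 1 mouse was not stated in the sources used here. Since the labels do not tie a library to an animal, p-values measure the spread between these libraries.

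Toll-like receptors recognize molecules of microbes and of damaged cells and signal through adaptors, chiefly MyD88, to NF-κB and interferon regulatory factors. TLR1, TLR2, TLR5 and TLR6 act at the cell surface, whereas TLR3, TLR7, TLR8, TLR9 and TLR13 sense nucleic acids inside endosomes, to which the chaperone UNC93B1 delivers them. In the airway they are found on epithelial cells, macrophages, dendritic cells, neutrophils and B cells. LPS itself is the ligand of TLR4, which is not a member, and which was higher in OL than in PBS (6.99 ± 1.18 FPKM, SD, n = 4, against 4.13 ± 1.28, n = 3, log2 fold change 0.66, limma adjusted p = 0.0194) and lay at 5.14 ± 0.966 FPKM (n = 4) in OLG. This difference was not called after GC correction (0.12, limma adjusted p = 0.583) or without PBS 3 (0.47, limma adjusted p = 0.0846). Tlr11 lay between 0.613 and 1.60 FPKM and Tlr12 between 0.276 and 1.18 FPKM over all libraries.

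Some libraries stood apart, and the tissue was mixed. FPKM is the number of fragments on a gene relative to its exon length and to the library's total, and the totals implied by the table were 14513136 to 18632382 fragments. The deviation of genes from their mean rose with GC content in PBS 3 by 0.53 on the log2 scale per 10 points of GC, against 0.05 and 0.06 in the other PBS libraries, 0.05 to 0.11 in OLG and -0.26 to -0.19 in OL. Base composition therefore differed between the groups, and values after a GC correction fitted per library and without PBS 3 are set beside the receptors' differences from PBS. Among these transcripts GC content ran from 40.03% in Tlr3, 40.1% in Tlr8, 41.0% in Tlr7 and 43.6% in Tlr13 through 45.1% in Tlr1, 45.6% in Tlr6, 47.6% in Tlr5 and 49.3% in Tlr2 to 56.2% in Tlr9. OL 12 held thymocyte markers (4 of 4 genes measured, led by Dntt and Rag1) at a summed 23.6 FPKM, whereas no other library exceeded 0.348 FPKM. The labels name trachea and the methods name airway from which the trachea had been removed. The 3 cartilage markers, led by Acan and Matn1, summed to between 0 and 39.9 FPKM over the libraries, the 6 airway epithelial markers, led by Scgb1a1 and Scgb3a2, to 27165 to 50002 FPKM, and the 3 alveolar markers, led by Sftpc and Ager, to 4190 to 14339 FPKM.

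All 9 receptors were detected in every library, at low to middling levels. Over the 11 libraries Tlr2 had the highest mean level, 7.26 FPKM, at percentile 51.6 of the 14004 genes tested, and Tlr9 the lowest, 1.27 FPKM, at percentile 10.4. Tlr3 lay at 5.88, Tlr1 at 3.85, Tlr8 at 3.11, Tlr13 at 2.75, Tlr7 at 2.58, Tlr6 at 2.18 and Tlr5 at 1.95 FPKM. The counts behind these values were modest, from 36 to 125 fragments per library for Tlr9 and from 297 to 649 for Tlr3. FPKM of Tlr5 was not a whole multiple of a fragment with the exon length of the annotation used here, so no fragment number is given for it. In PBS each receptor overlapped with its neighbours in the order of mean levels, Tlr2, Tlr3, Tlr1, Tlr5, Tlr6, Tlr13, Tlr8, Tlr9 and Tlr7. In OL the order was Tlr2, Tlr3, Tlr1, Tlr8, Tlr7, Tlr13, Tlr6, Tlr5 and Tlr9, and only the neighbours Tlr3 and Tlr1, and Tlr6 and Tlr5, did not overlap. In OLG it was Tlr2, Tlr3, Tlr8, Tlr1, Tlr13, Tlr7, Tlr6, Tlr5 and Tlr9, and Tlr2 stood clear of Tlr3, Tlr3 of Tlr8, and Tlr5 of Tlr9. By group means Tlr5 thus moved from the fourth place in PBS to the eighth in both challenged groups, and Tlr7 from the last place to the fifth in OL. Single libraries did not always keep this order. Tlr6 stood above Tlr5 in only 1 of 4 OLG libraries, and Tlr9 above Tlr7 in only 1 of 3 PBS libraries.

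**Figure D1:**
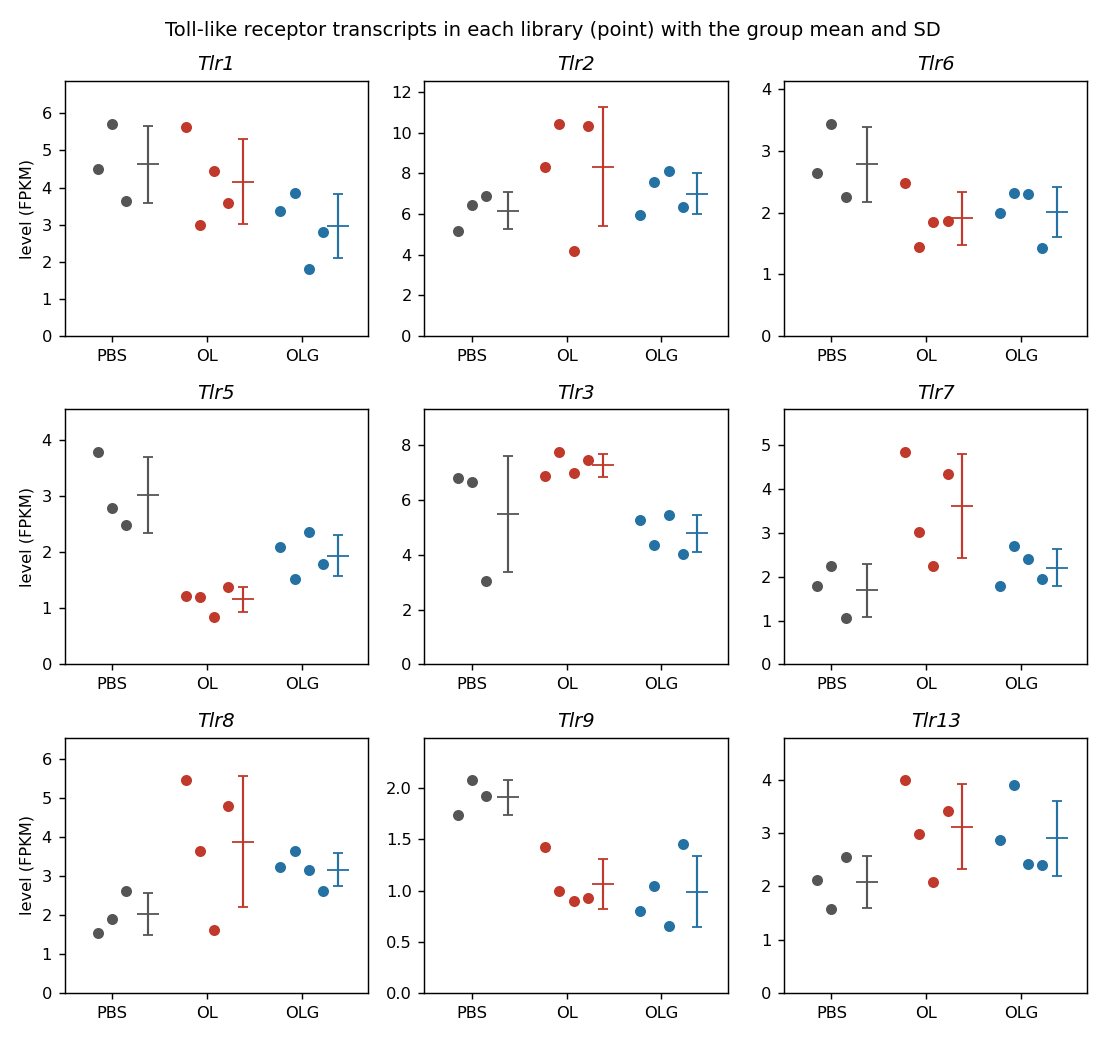
Levels of the 9 receptors in FPKM, 1 panel per gene, with a point for each library of PBS (n = 3), OL (n = 4) and OLG (n = 4) and the group mean with SD beside the points. Tlr5 separates all 3 groups and Tlr9 is higher in the PBS libraries than in all others. In Tlr2, Tlr5, Tlr7, Tlr8, Tlr9 and Tlr13 the lowest OL point is OL 56.

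In the annotation (GENCODE M21 on GRCm38, whereas the submitters' processing notes name mm39) some of the genes are neighbours. Tlr1 (ENSMUSG00000044827, 5:64924679-64933563) and Tlr6 (ENSMUSG00000051498, 5:64952031-64960097) are neighbours on the minus strand of chromosome 5, and Tlr8 (ENSMUSG00000040522, X:167242696-167264329) and Tlr7 (ENSMUSG00000044583, X:167304929-167330558) are neighbours on the minus strand of the X chromosome, which also carries Tlr13 (ENSMUSG00000033777, X:106143204-106160493, plus strand). Tlr2 (ENSMUSG00000027995) lies at 3:83836272-83841767, minus strand. Tlr3 (ENSMUSG00000031639) lies at 8:45395665-45411080, minus strand, Tlr5 (ENSMUSG00000079164) at 1:182954788-182976044, plus strand, and Tlr9 (ENSMUSG00000045322) at 9:106222598-106226883, plus strand. The only annotated gene overlapping a member is Gm45542, antisense to the first part of Tlr3, which has no row in the table. Whether counting used the strand was not stated in the sources used here, so reads of that pair could not be told apart.

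The promoters of Tlr5, Tlr9, Tlr3 and Tlr8 are shown because the levels of these genes separated groups completely in at least 1 comparison below. Each runs from 250 bases before to 50 bases after the RefSeq start (GRCm38.p6), 5′ to 3′, in lower case, with matches to 7 motifs in capitals. The motifs, searched on both strands, were the interferon response core GAAANNGAAA, the GAS element TTCNNNGAA, the κB decamer, AP-1 (TGACTCA), PU.1 (GAGGAAG), the E-box CACGTG and TATAAA.
Tlr5 (chr1:182954538-182954837, plus strand): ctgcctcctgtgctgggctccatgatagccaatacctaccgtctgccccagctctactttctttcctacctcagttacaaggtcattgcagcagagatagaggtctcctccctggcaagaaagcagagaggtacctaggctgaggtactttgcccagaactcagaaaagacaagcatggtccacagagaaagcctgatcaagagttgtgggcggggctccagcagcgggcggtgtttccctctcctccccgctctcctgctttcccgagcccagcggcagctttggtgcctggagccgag
Tlr9 (chr9:106222348-106222647, plus strand): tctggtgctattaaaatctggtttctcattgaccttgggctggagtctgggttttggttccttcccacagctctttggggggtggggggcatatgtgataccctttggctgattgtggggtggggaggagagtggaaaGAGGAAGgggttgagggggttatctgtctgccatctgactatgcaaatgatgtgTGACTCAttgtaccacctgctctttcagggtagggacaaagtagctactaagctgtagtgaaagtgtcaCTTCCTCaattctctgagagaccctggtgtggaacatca
Tlr3 (chr8:45410331-45410630, minus strand): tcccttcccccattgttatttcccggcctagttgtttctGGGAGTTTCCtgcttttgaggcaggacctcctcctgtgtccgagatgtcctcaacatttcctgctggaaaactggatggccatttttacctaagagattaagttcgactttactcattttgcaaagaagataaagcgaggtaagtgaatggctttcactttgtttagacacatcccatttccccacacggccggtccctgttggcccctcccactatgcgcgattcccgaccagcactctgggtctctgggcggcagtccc
Tlr8 (chrX:167264280-167264579, minus strand): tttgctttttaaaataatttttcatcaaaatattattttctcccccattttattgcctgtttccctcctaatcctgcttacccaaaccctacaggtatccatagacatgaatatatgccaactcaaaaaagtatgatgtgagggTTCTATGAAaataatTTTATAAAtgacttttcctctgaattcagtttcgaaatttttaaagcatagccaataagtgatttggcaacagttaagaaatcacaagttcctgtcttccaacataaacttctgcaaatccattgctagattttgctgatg
The window of Tlr5 held no match. That of Tlr9 held an AP-1 match and a PU.1 match before the start and a further PU.1 match, on the opposite strand, after it, and had no CpG dinucleotide. That of Tlr3 held 1 κB match, 211 bases before the start. That of Tlr8 held a GAS match and, on opposite strands, 2 overlapping TATAAA matches before the start. Of 32851 promoter windows of this length, 5.20% held the AP-1 letters, 13.6% the PU.1 letters, 4.51% a κB decamer, 8.30% the GAS letters and 13.6% TATAAA. Of the other members, Tlr2 had 3 κB matches, of which a pair overlapped, and Tlr6 had 2 overlapping interferon response cores in 1 of its 2 windows (3.44% of all windows held one). Promoters were found for 8 of the 9 members, all but Tlr7. A match is a run of letters and was not tested for binding.

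With OVA and LPS, 3 of 9 receptors changed against PBS, 1 higher (Tlr7) and 2 lower (Tlr5 and Tlr9). The test was limma on log2(FPKM + 1) over 14004 genes, with a call at a Benjamini-Hochberg adjusted p under 0.05, and 38.0% of all genes were called in this comparison, so the share of receptors called was near that of genes in general. The median log2 fold change of the 9 was 0.32, against -0.01 over all genes tested. After GC correction these medians were -0.11 and -0.07. Rescaling all libraries to the same FPKM total shifted the median of all genes to -0.15 and the lower share of calls from 58.1% to 78.8%, and left the direction of every member in place. Without PBS 3 only Tlr5 was called, beside 3064 of all genes. Without OL 12 Tlr6 was called lower beside the 3, and 4634 of all genes were called. Levels of 3 receptors did not overlap between these groups, Tlr3 being higher by a narrow margin and Tlr5 and Tlr9 lower in OL, while 44.1% of all genes tested had groups that did not overlap.

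Tlr5, the receptor for bacterial flagellin, showed the clearest separation. It was at 3.79, 2.80 and 2.49 FPKM in PBS, at 1.22, 1.19, 0.846 and 1.38 in OL, and at 2.10, 1.53, 2.36 and 1.78 in OLG. Every OL library lay below every OLG library, and every OLG library below every PBS library. The mean in OL was 2.61-fold lower than in PBS (1.16 ± 0.226 FPKM, n = 4, against 3.02 ± 0.677, n = 3). The log2 fold change on the log2(FPKM + 1) scale, which understates differences of low genes, was -0.89 (SE 0.15, limma adjusted p = 0.00366), and with a pseudocount of 0.1 it was -1.31. After GC correction it was -0.99 (limma adjusted p = 0.00714) and without PBS 3 also -0.99 (limma adjusted p = 0.00595). Leaving out any 1 of the 11 libraries kept the limma adjusted p between 0.00249 and 0.0131. In bulk tissue, fewer cells of a type and less RNA per cell cannot be told apart. The summed alveolar markers Sftpc, Sftpa1 and Ager were also lower in OL (4849 to 8107 FPKM) than in PBS (9286 to 14339 FPKM), and lay at 4190 to 10779 FPKM in OLG. The endothelial markers, led by Cdh5 and Pecam1, were at 362 to 623 FPKM in PBS, 290 to 322 in OL and 208 to 427 in OLG. The airway epithelial markers went the other way by mean, with 32696 FPKM in PBS and 43594 in OL. Their ranges overlapped, at 27165 to 38312 FPKM in PBS, 32650 to 50002 in OL and 40864 to 47973 in OLG, and most of each sum was Scgb1a1. The part of these cells in the Tlr5 levels was not tested.

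Tlr7, a sensor of single-stranded RNA in endosomes, was higher in OL. It was at 1.79, 2.24 and 1.05 FPKM in PBS, at 4.85, 3.02, 2.24 and 4.35 in OL, and at 1.79, 2.7, 2.41 and 1.95 in OLG. Only OL 56 came down to the level of the PBS libraries, and the OLG libraries overlapped with both other groups. The mean in OL was 2.13-fold that of PBS (3.62 ± 1.2 FPKM, n = 4, against 1.69 ± 0.602, n = 3), a log2 fold change of 0.76 (SE 0.22, limma adjusted p = 0.0194). This call was lost after GC correction (0.29, limma adjusted p = 0.281), without PBS 3 (0.58, limma adjusted p = 0.0899) and without OL 78 (limma adjusted p = 0.0522).

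Tlr9, the sensor of unmethylated CpG DNA, was lower in OL. It was at 1.74, 2.08 and 1.93 FPKM in PBS, at 1.43, 1.0, 0.902 and 0.929 in OL, and at 0.802, 1.05, 0.656 and 1.46 in OLG. All PBS libraries stood above all libraries of both challenged groups, which overlapped with each other. The mean in OL was 1.80-fold lower than in PBS (1.06 ± 0.246 FPKM, n = 4, against 1.91 ± 0.171, n = 3), a log2 fold change of -0.50 (SE 0.15, limma adjusted p = 0.0224). This call was lost after GC correction (-0.20, limma adjusted p = 0.265), and in limma fits with fewer libraries, where the fold changes stayed between -0.50 and -0.47, the adjusted p was 0.0620 without PBS 3, 0.0511 without OL 34, 0.0570 without OL 56 and 0.0562 without OL 78. B cells express Tlr9, and the 6 B cell markers measured, led by Cd79a and Cd79b, summed to 95.0 to 108 FPKM in PBS, 36.9 to 107 in OL and 33.0 to 64.5 in OLG. OL 12 and OL 56, whose B cell sums (107 and 106 FPKM) lay within the range of PBS, had Tlr9 at 1.43 and 0.902 FPKM. The 4 plasmacytoid dendritic cell markers, led by Cox6a2 and Klk1, summed to 11.4 to 116 FPKM in PBS, 59.0 to 99.7 in OL and 38.6 to 135 in OLG. Most of each sum was Cox6a2, so these sums followed that gene more than the list. Siglech, also on that list, had a mean of 2.40 FPKM in PBS (1.22 to 4.58), 1.10 in OL (0.804 to 1.32) and 1.18 in OLG (0.879 to 1.38). The rest of the list had higher means in OL than in PBS. These were 76.1 against 45.9 FPKM for Cox6a2, 2.26 against 1.57 for Klk1 and 0.733 against 0.248 for Ccr9. In OLG their means were 85.2, 1.37 and 0.187 FPKM. The ranges of OL and PBS overlapped for every gene of the list. The part of these cells in the Tlr9 levels was not tested.

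The other receptors did not pass the test between OL and PBS. Tlr3, the sensor of double-stranded RNA, was at 6.81, 6.64 and 3.06 FPKM in PBS, at 6.86, 7.75, 6.99 and 7.46 in OL, and at 5.27, 4.37, 5.45 and 4.04 in OLG. The OL libraries were tightly grouped (7.27 ± 0.413 FPKM, n = 4), and PBS 3 alone was far below the other PBS libraries. Its log2 fold change was 0.41 (SE 0.20, limma adjusted p = 0.127), which came to 0.10 without PBS 3 and turned to -0.11 after GC correction. Tlr8, which senses products of RNA breakdown and is known to restrain TLR7 in mice, was at 1.54, 1.91 and 2.60 FPKM in PBS, at 5.45, 3.65, 1.61 and 4.79 in OL, and at 3.22, 3.65, 3.16 and 2.62 in OLG. As for Tlr7, all OL libraries but OL 56 stood above PBS (log2 fold change 0.63, SE 0.26, limma adjusted p = 0.0766). Its log2 fold change was 0.12 after GC correction (limma adjusted p = 0.802) and 0.76 without PBS 3 (limma adjusted p = 0.0935). Tlr13, which recognizes bacterial ribosomal RNA, was at 2.11, 1.57 and 2.54 FPKM in PBS, at 3.99, 2.98, 2.08 and 3.42 in OL, and at 2.87, 3.91, 2.42 and 2.40 in OLG. Again OL 56 alone lay within the PBS range (log2 fold change 0.41, SE 0.19, limma adjusted p = 0.0993). Its log2 fold change was 0.07 after GC correction (limma adjusted p = 0.831) and 0.52 without PBS 3 (limma adjusted p = 0.0965).

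Tlr2 and its partners Tlr1 and Tlr6 went separate ways without passing the test. TLR2 recognizes bacterial lipoproteins, triacylated ones with TLR1 and diacylated ones with TLR6. Tlr2 was at 5.15, 6.42 and 6.91 FPKM in PBS, at 8.33, 10.5, 4.2 and 10.3 in OL, and at 5.95, 7.57, 8.14 and 6.37 in OLG. All OL libraries but OL 56, the lowest of all libraries, were above PBS (log2 fold change 0.32, SE 0.24, limma adjusted p = 0.299), and the fold change was 0.31 after GC correction and 0.40 without PBS 3. Tlr1 was at 4.50, 5.73 and 3.64 FPKM in PBS, at 5.63, 2.99, 4.44 and 3.58 in OL, and at 3.37, 3.85, 1.82 and 2.81 in OLG. PBS and OL overlapped broadly (log2 fold change -0.13, SE 0.22, limma adjusted p = 0.638), with -0.38 after GC correction and -0.26 without PBS 3. Tlr6 was at 2.64, 3.44 and 2.26 FPKM in PBS, at 2.48, 1.44, 1.85 and 1.86 in OL, and at 1.996, 2.31, 2.30 and 1.43 in OLG. OL 12 alone among the OL libraries reached the PBS range (log2 fold change -0.38, SE 0.16, limma adjusted p = 0.0796), and Tlr6 was called lower after GC correction (-0.60, limma adjusted p = 0.0193) and without OL 12 (limma adjusted p = 0.0460), and not without PBS 3 (-0.48, limma adjusted p = 0.0706). After that correction 2 of 9 receptors were called, Tlr5 and Tlr6, against 20.8% of all genes.

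OL 56 had the lowest level of Tlr2, Tlr5, Tlr7, Tlr8, Tlr9 and Tlr13 within its group, with Tlr5 at 0.846 and Tlr9 at 0.902 FPKM. Without it, Tlr2 (limma adjusted p = 0.0232), Tlr8 (0.0131) and Tlr13 (0.0440) were called higher in OL than in PBS beside Tlr7 (0.0167). In that fit 5 of 9 receptors were called, beside 3782 of the 14004 genes tested. OL 56 was picked out by its low values of Tlr2, Tlr7, Tlr8 and Tlr13, so leaving it out had to raise their differences. For Tlr5 and Tlr9, lower in OL than in PBS, the log2 fold changes without OL 56 were -0.82 and -0.47. The fit without OL 56 carried no GC correction, under which, with OL 56 kept, Tlr7, Tlr8 and Tlr13 differed by 0.29, 0.12 and 0.07. The same library had the lowest sum of the 6 macrophage markers in its group, led by Cd68 and Csf1r, with 46.7 FPKM against 74.9 to 108 in the other OL libraries, and the lowest sum of the 6 neutrophil markers, led by S100a9 and Retnlg, with 138 FPKM against 227 to 260. Over groups, macrophage sums were 80.7 to 112 FPKM in PBS, 46.7 to 108 in OL and 93.2 to 125 in OLG, and neutrophil sums 107 to 348, 138 to 260 and 148 to 297 FPKM. Adgre1 (8.84 against 6.47 FPKM) and Mrc1 (15.4 against 12.4) of the macrophage list had higher means in OL than in PBS. Cd68, Marco, Csf1r and Mertk had lower ones. Of the neutrophil list, S100a8, Ly6g, Cxcr2 and Retnlg had higher means in OL, and S100a9 and Csf3r lower ones. Ly6g lay at 0 to 0.171 FPKM in PBS and at 0.400 to 0.953 in OL. The 3 monocyte markers, led by Plac8 and Ccr2, summed to 22.4 to 37.3 FPKM in PBS, 21.99 to 32.8 in OL and 18.6 to 25.5 in OLG, and the 5 dendritic cell markers, led by Clec9a and Cd209a, to 26.01 to 35.4, 24.1 to 28.8 and 18.7 to 31.5 FPKM. The part of cell numbers in the levels of these receptors was not tested.

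**Figure D2:**
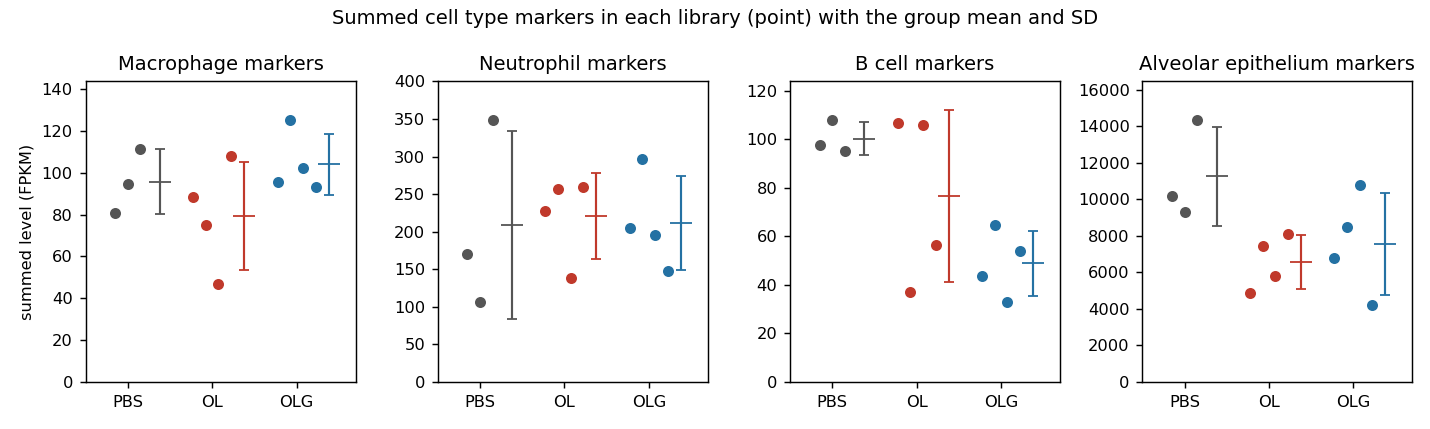
Summed FPKM of macrophage, neutrophil, B cell and alveolar epithelial markers, with a point for each library of PBS, OL and OLG and the group mean with SD beside the points. Among the OL libraries the lowest macrophage sum (46.7) and the lowest neutrophil sum (138) are those of OL 56, B cell sums are 95.0 or more in PBS and 64.5 or less in OLG, and alveolar sums are lower in OL than in PBS.

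GGsTop was compared with vehicle in challenged mice. None of the 9 receptors passed the limma test between OLG and OL, where 8.71% of all genes were called, and 3 of them (Tlr3, Tlr5 and Tlr7) had an unadjusted p under 0.05. On recovered fragments limma voom called 0 of the 8 receptors that could be fitted. The median log2 fold change of the 9 was -0.15, against 0.03 over all genes. Rescaling to the same FPKM total lowered the share of calls that were lower from 20.8% to 7.11%. Levels of 2 receptors did not overlap between the groups, Tlr3 and Tlr5, against 29.7% of all genes.

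Tlr5 was 1.67-fold higher in OLG than in OL (1.94 ± 0.362 FPKM, n = 4, against 1.16 ± 0.226, n = 4), with all 4 OLG libraries above all 4 OL libraries. The log2 fold change was 0.44 (SE 0.14, limma adjusted p = 0.0597), and 0.46 after GC correction (limma adjusted p = 0.104). Tlr3 was 1.52-fold lower in OLG (4.78 ± 0.687 FPKM, n = 4, against 7.27 ± 0.413, n = 4), again with no overlap. Its log2 fold change was -0.52 (SE 0.19, limma adjusted p = 0.0915), and -0.20 after GC correction (limma adjusted p = 0.306). PBS 3 entered these tests only through the shared estimate of the spread. Without it the limma adjusted p was 0.0297 for Tlr5 and 0.00454 for Tlr3, and with only the OL and OLG libraries in the fit it was 0.0288 and 0.00729. Calls over all genes rose as well in these fits, to 3591 and 3525, from 1220 in the fit of all libraries. With GC correction and PBS 3 left out together neither gene was called (limma adjusted p = 0.0987 for Tlr5 and 0.229 for Tlr3). Tlr7 was 1.64-fold lower in OLG (2.21 ± 0.417 FPKM, n = 4, against 3.62 ± 1.2, n = 4), and the groups overlapped through OL 56 (log2 fold change -0.49, SE 0.20, limma adjusted p = 0.125). Tlr1 had a log2 fold change of -0.38 (limma adjusted p = 0.213), and that of Tlr2 was -0.16, of Tlr8 -0.15, of Tlr13 -0.07, of Tlr9 -0.06 and of Tlr6 0.05, with adjusted p-values between 0.648 and 0.849 in limma. After GC correction the differences of Tlr8 and Tlr13 turned to 0.17 and 0.13, and no receptor was called, against 0.400% of all genes.

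**Figure D3:**
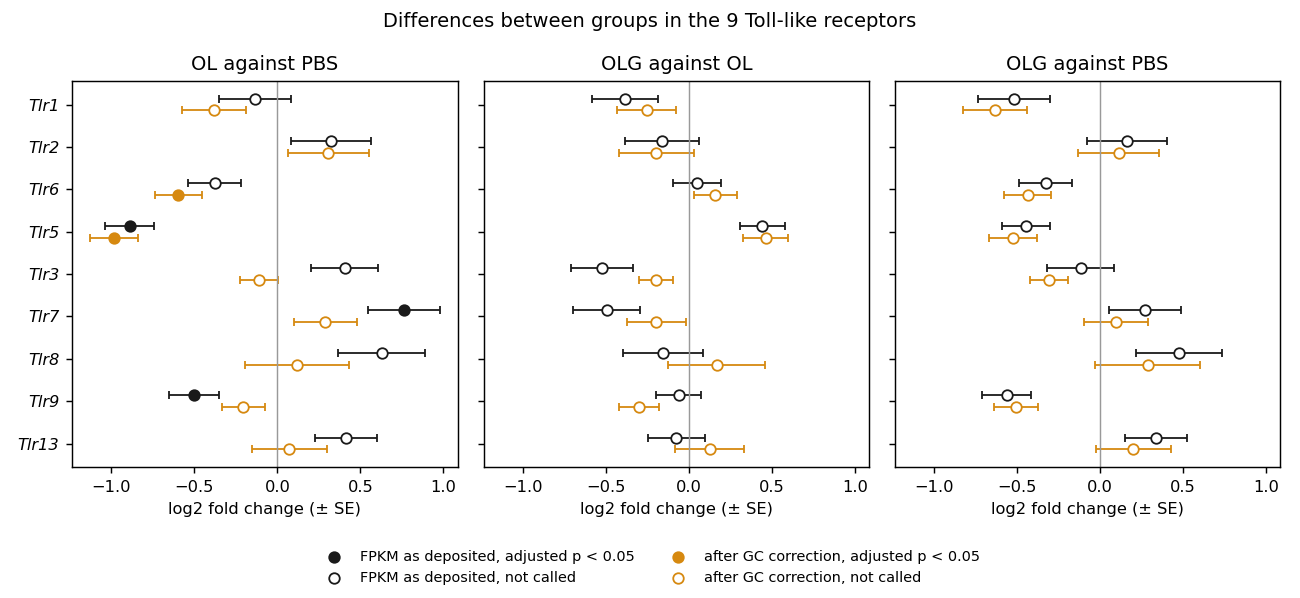
Log2 fold changes of the 9 receptors with their standard errors in 3 comparisons, on FPKM as deposited (black) and after GC correction (orange), with filled points for an adjusted p under 0.05. Tlr5 is called lower in OL than in PBS in both, Tlr7 and Tlr9 only on the deposited values and Tlr6 only after correction, and no receptor is called in the other comparisons.

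OLG was also set against PBS. None of the 9 receptors was called by limma, against 2.88% of all genes, and Tlr1, Tlr5 and Tlr9 had an unadjusted p under 0.05. Voom on recovered fragments called 0 of 8. The libraries of these groups with the same number deviated together. The replicate block could use only the libraries numbered 1 to 3, without OLG 4 and the OL libraries, and called 95 genes, whereas the same 6 libraries without a block gave 14 calls, and the fit of all libraries 403. No receptor was called in any of these 3 fits. After GC correction no receptor was called either, against 4.24% of all genes, and Tlr9 had a log2 fold change of -0.51, Tlr5 of -0.52, Tlr1 of -0.63 and Tlr8 of 0.29. Without PBS 3 those 4 were at -0.56, -0.54, -0.65 and 0.61, with no call. Levels did not overlap for 3 receptors, Tlr8 being higher and Tlr5 and Tlr9 lower in OLG, against 14.8% of all genes. Rescaling to the same FPKM total moved the share of calls that were lower from 28.5% to 49.3%, and under it Tlr9 was called lower (limma adjusted p = 0.0462). Tlr9 was 1.93-fold lower in OLG than in PBS (0.991 ± 0.351 FPKM, n = 4, against 1.91 ± 0.171, n = 3; log2 fold change -0.56, SE 0.15, limma adjusted p = 0.0637), and leaving out OLG 4, its highest OLG library, gave an adjusted p of 0.0452 in limma. Tlr5 was 1.56-fold lower (log2 fold change -0.45, SE 0.15, limma adjusted p = 0.122) and Tlr1 1.56-fold lower (-0.52, SE 0.22, limma adjusted p = 0.208). Tlr8 was 1.57-fold higher (0.47, SE 0.26, limma adjusted p = 0.327), Tlr13 had a log2 fold change of 0.34, Tlr7 of 0.27, Tlr2 of 0.16, Tlr3 of -0.12 and Tlr6 of -0.33, with limma adjusted p-values from 0.270 to 0.765. The OL and OLG comparisons share libraries, so their values are set side by side and are not independent.

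**Figure D4:**
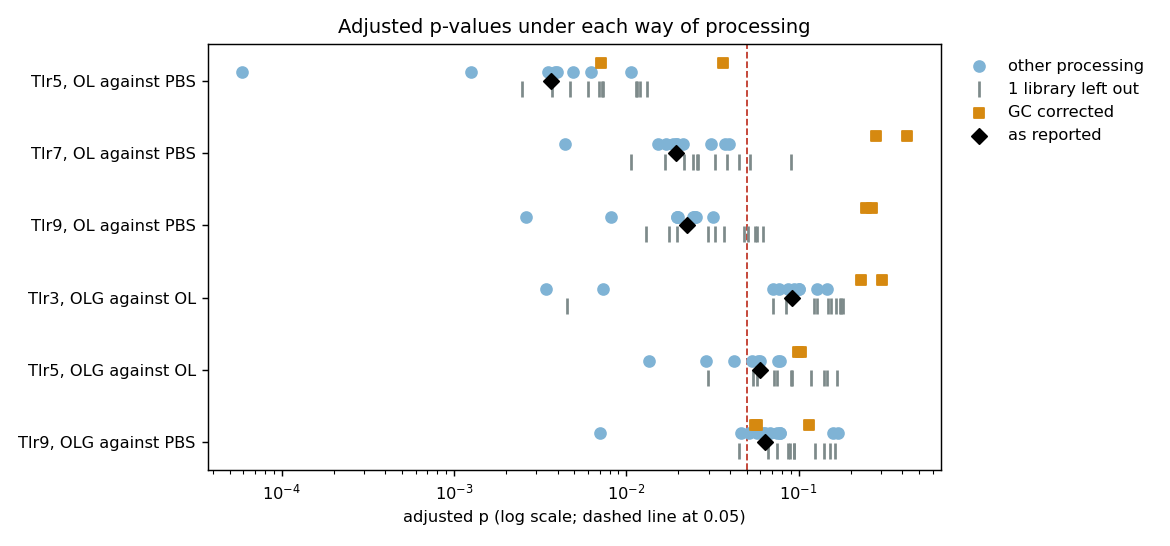
Adjusted p-values (log axis, dashed line at 0.05) of 6 results under each way of processing, with a black diamond for the value as reported, orange squares for GC correction with and without PBS 3, blue circles for other processing and grey strokes for fits with 1 library left out. Tlr5 stays left of the line in every fit of OL against PBS, whereas Tlr7 and Tlr9 cross it, and Tlr3 and Tlr5 in OLG against OL and Tlr9 in OLG against PBS lie mostly to its right.

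The makeup of the family differed between groups. These sums and ratios were chosen after the values had been seen and are given without a test. The 4 surface receptors made up 53.5% to 57.8% of the summed FPKM of the 9 in PBS, 43.9% to 46.6% in OL and 49.0% to 50.9% in OLG, so that the 3 groups did not overlap. The 5 endosomal receptors made up the rest, with a mean of 44.2% ± 2.15 (n = 3) in PBS, 54.9% ± 1.13 (n = 4) in OL and 50.2% ± 0.823 (n = 4) in OLG. Tlr5 alone was 8.52% to 12.6% of the sum in PBS, 3.03% to 3.63% in OL and 4.94% to 8.21% in OLG. In absolute terms, the surface receptors summed to 15.3 to 18.4 FPKM in PBS, 11.3 to 17.6 in OL and 12.4 to 15.3 in OLG, and the endosomal ones to 11.2 to 14.4, 13.8 to 22.6 and 12.5 to 15.7 FPKM. Tlr7 was 0.545 to 1.08 times Tlr9 in PBS, 2.49 to 4.69 times in OL and 1.34 to 3.67 times in OLG, and no PBS library reached a challenged one. Tlr3 was 1.23 to 2.37 times Tlr5 in PBS, 5.39 to 8.26 times in OL and 2.26 to 2.86 times in OLG. The endosomal receptors other than Tlr9 have the lowest GC content of the family, and, as given above, the deviations of genes fell with GC content in OL and rose with it in PBS 3. The part of GC content in these shares was not tested.

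**Figure D5:**
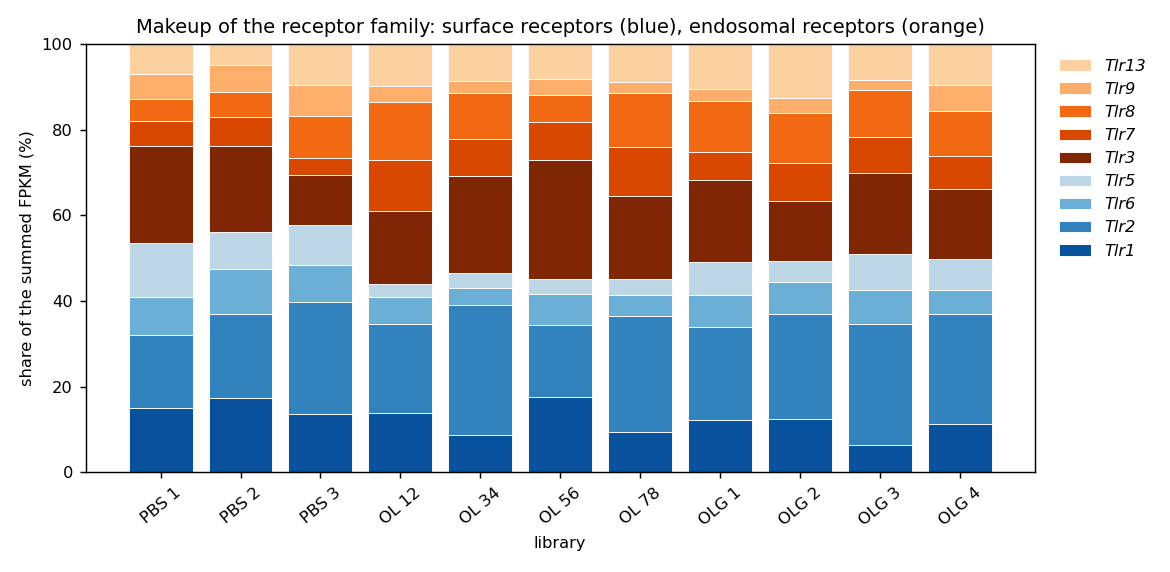
Share of each receptor in the summed FPKM of the 9 (y axis, %), 1 stacked bar per library, with surface receptors in blue at the bottom and endosomal receptors in orange above. The blue part ends at 53.5% or more in PBS, between 43.9% and 46.6% in OL and between 49.0% and 50.9% in OLG, and the band of Tlr5 is narrowest in OL.

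Genes that varied most like each receptor within groups were sought among the other 14003 genes, by Pearson's r over the 11 libraries after removal of group means. These values describe libraries that share depth and base composition and carry no test. For Tlr3 they were Spopl (r = 0.992) and Orc4 (0.991), and without PBS 3 both were lower (0.968 and 0.968). For Tlr1 they were Prkcb (0.953), a kinase of the B cell receptor pathway, and Tespa1 (0.919), and for Tlr2 they were Copa (0.940) and Ccr1 (0.929), a chemokine receptor of myeloid cells. For Tlr6 they were Apbb1ip (0.927) and Dock10 (0.920), for Tlr7 Prcp (0.939) and Wdfy2 (0.937), and for Tlr8 Adcy7 (0.956) and Serac1 (0.952). For Tlr13 they were Cyth4 (0.951) and Gtf2ird2 (0.950), for Tlr9 Pnmal2 (0.978) and Slc7a1 (0.957), and for Tlr5 Gm5148 (0.964) and Zkscan3 (0.959). Without PBS 3 the r of all these pairs lay between 0.909 and 0.980. Between members, Tlr8 had r = 0.815 with Tlr2, 0.809 with Tlr13 and 0.589 with its neighbour Tlr7, which came to 0.904 without PBS 3, while Tlr1 and Tlr6, also neighbours, had r = 0.557.

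The other genes of Toll-like receptor signalling were followed in 8 lists, of which 65 of 67 genes entered the fit. Between OL and PBS 30 of 65 were called, 12 higher and 18 lower, beside 38.0% of all genes, and their median log2 fold change was -0.10. Of 10 genes of endosomal transport and processing 7 were called. Hsp90b1, the chaperone of most Toll-like receptors (0.79), and the proteases Ctsk (1.31), Ctss (0.80) and Ctsl (0.45), of the kind that cut endosomal receptors, were higher, whereas Unc93b1 (-0.54), Cnpy3, the partner of Hsp90b1 (-0.67), and Slc15a4 (-0.52) were lower. Of 6 surface co-receptors, Cd14 (0.79), Cd36 (0.49) and Ly86 (0.54) were higher and Tril, which assists TLR3 and TLR4, was lower (-0.68). Of 5 adaptors, Ticam2 was higher (0.57) and Myd88, used by all members but Tlr3, was lower (-0.54). Of 16 kinases and ubiquitin ligases, Chuk (0.51) and Ube2n (0.48) were higher and Irak2 (-0.35), Irak4 (-0.28), Traf3 (-0.31) and Tab1 (-0.54) lower. Of 7 transcription factors 4 were lower and none was called higher, namely Rela (-0.83), Irf3 (-0.64), Irf7 (-0.55) and Nfkb1 (-0.35). Of 8 inhibitors, Cyld was higher (0.38) and Sigirr (-0.53), Rnf216 (-0.30) and Tollip (-0.29) lower. Of 10 cytosolic sensors, Nod1 (-0.73) and Ddx58 (-0.38) were lower. After GC correction 13 of the 65 were called, 10 of them among the 30, beside 20.8% of all genes, a share that the list did not exceed. Those 10 were Hsp90b1, Cnpy3, Ctsk, Cd14, Ly86, Myd88, Nfkb1, Rela, Tollip and Ddx58, and under the correction Cd36 (-0.09) and Ube2n (-0.0040) changed sign. The number of the 65 called was 12 without PBS 3, 16 without OL 34, 17 without OL 56 and 18 without OL 78. Over all genes, 3064, 3836, 3782 and 3838 were called in these fits, against 5327 in the fit of all libraries.

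With GGsTop, 4 of 65 pathway genes were called between OLG and OL, beside 8.71% of all genes, a share that the list did not exceed. Cd36, a scavenger receptor that assists TLR2 with TLR6, was lower (227 ± 26.8 FPKM, n = 4, against 377 ± 28.5, n = 4, log2 fold change -0.74). Irf3, the interferon regulatory factor downstream of TLR3, was higher (0.49), as were Rnf216 (0.33) and Irak2 (0.30). The median of the 65 was -0.01, against 0.03 over all genes. None of these 4 was called after GC correction. There 1 of the 65 was called, the inhibitor Socs1, which was lower (-0.86, limma adjusted p = 0.0387), beside 0.400% of all genes. Without the correction Socs1 was not called (-0.57, limma adjusted p = 0.0647). The number called was 1 without PBS 1, 21 without PBS 3 and 0 without any 1 of OL 12, OL 34, OL 56, OL 78, OLG 1, OLG 2 and OLG 3. Calls over all genes moved too, with 991 without PBS 1, 3591 without PBS 3 and 24 to 739 in the fits that gave 0. Between OLG and PBS 1 of 65 was called, beside 2.88% of all genes. This gene was Tril, which was lower (-0.88, limma adjusted p = 0.0271), and 1 of 65 was called after GC correction too, beside 4.24% of all genes. The number called was 7 without PBS 2 and 0 without any 1 of PBS 1, PBS 3, OLG 1, OLG 2 and OLG 4, and the median of the 65 was -0.08. Calls over all genes in these fits are not given here, so the moves from 1 are not read as a result about these genes.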

How the data were processed

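Airway RNA of 11 libraries in 3 groups was measured by RNA sequencing. The authors deposited FPKM, 1 column per library. The submitters' processing notes name cutadapt 1.15, HISAT2 2.0.5, HTSeq 0.9.1 and mm39, with no role given. FPKM of 97.8% of genes came out as whole fragments in every library (tolerance 0.02 fragments), from which 14513136 to 18632382 fragments per library followed, and these totals limit the precision of low genes. Gene identifiers were matched to GENCODE M21 for 21846 of 21899 genes. The study's methods name a test for read counts. Since the table holds FPKM, log2(FPKM + 1) was tested for the 14004 genes whose mean over all libraries reached 0.5 FPKM, with limma 3.58.1 (R 4.3.3), mean-variance trend, all groups in one fit, two-sided, with Benjamini-Hochberg adjustment over all genes. All 9 members passed this filter. The fit was tested on simulated data. Within groups, no libraries were duplicates by a chi-square test of their fragments, and pairs across groups were not compared in this way. Same-numbered PBS and OLG libraries deviated together (r = 0.367, 0.427 and 0.428 over 14004 genes), a pairing taken from the data alone, so that the replicate block was an alternative, which rests on libraries 1 to 3 of these groups. The same libraries without a block were fitted as an alternative chosen after seeing the data. GC correction was a spline with 5 degrees of freedom per library. Other alternatives were pseudocount, filter, scaling, array weights, groups in the fit, voom and leaving out each library. Members and lists were chosen with earlier results of these data known. All members and each pathway gene called on the deposited values were named, as was Socs1, called after GC correction. Up to 2 markers per list with the highest mean and, for each member, the 2 genes most like it were named too. All markers of the alveolar, macrophage, neutrophil and plasmacytoid dendritic cell lists were named as well.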

Additional observations from a re-analysis of the deposited data

How the results depend on the processing

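Tlr5 was called lower in OL than in PBS in every fit that held it, Tlr7 and Tlr9 were not. The number of receptors called in OL against PBS, 3 as reported, was 7 with array weights, 1 with GC correction and PBS 3 left out together (an alternative chosen after seeing the data), and 1 to 5 when 1 library was left out. Over all genes, 7916, 310 and 3064 to 6440 were called in these fits, against 5327 as reported. In OLG against OL, 0 as reported, the number of receptors was 1 with the same FPKM total, 3 with array weights, 2 with only the 2 groups compared and 0 to 2 when 1 library was left out. Over all genes, 2181, 5214, 3525 and 24 to 3591 were called in these fits, against 1220 as reported. In OLG against PBS, 0 as reported, the number of receptors was 1 with the same FPKM total, 3 with array weights and 0 to 1 when 1 library was left out. Over all genes, 493 were called with the same FPKM total, against 403 as reported. With the replicate block Tlr9 had a log2 fold change of -0.67 in OLG against PBS (limma adjusted p = 0.0775, and 0.0576 with GC correction added), and the block changed the call of no receptor. For the pathway genes of OL against PBS and OLG against OL the counts over all genes moved in the same fits as given above. With GC correction they were 2910 in OL against PBS and 56 in OLG against OL, and 298 in OLG against OL with PBS 3 left out too. For OLG against PBS no count over all genes is given here with array weights, without a filter or with only the 2 groups compared. None is given either with GC correction and PBS 3 left out together, or with 1 library left out. The numbers of receptors and pathway genes in those fits are therefore not read as results about these genes. The pathway genes called in OL against PBS were 13 with GC correction, 0 with that and PBS 3 left out, and 12 to 33 when 1 library was left out. In OLG against OL they were 9 with the same FPKM total, 26 with array weights, 19 with only the 2 groups compared, 1 with GC correction, 2 with that and PBS 3 left out, and 0 to 21 when 1 library was left out. In OLG against PBS they were 0 without a filter, 2 with the same FPKM total, 10 with array weights, 0 with only the 2 groups compared, 0 with GC correction and PBS 3 left out, 0 with the paired libraries and no block, and 0 to 7 when 1 library was left out. Under GC correction, with and without PBS 3, the log2 fold change of Tlr3 in OL against PBS turned to -0.11 and -0.22, that of Tlr8 in OLG against OL to 0.17 and 0.17, and that of Tlr13 to 0.13 and 0.13. With 1 library left out, values passed through 0 for Tlr1 in OL against PBS (-0.26 to 0.0033), for Tlr6 (-0.030 to 0.15), Tlr8 (-0.43 to 0.0073), Tlr9 (-0.17 to 0.022) and Tlr13 (-0.21 to 0.025) in OLG against OL, and for Tlr3 in OLG against PBS (-0.43 to 0.046). None of these turned values passed the test, and the cause was not tested. Tlr5 had no value in voom. Of 642 member results under alternatives, 594 kept direction and call, 23 gained a call, 10 lost one and 15 changed sign. Part of them could not change direction, since some alternatives, such as leaving out a library of the group not compared, return the same fold change.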
